A study of Mus musculus with 37 samples.

Results

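The R6/2 transgene effect on the Hdac4 heterozygous background was taken from cortex RNA of 9 wk old mice. It was read by setting 10 Dble::R6/2 arrays against 9 Hdac4HET arrays, 19 of the 37 arrays of the series. Each array is titled as a replicate of its genotype. R6/2 mice carry a transgene with the first exon of the human huntingtin gene and an expanded CAG repeat. One of the 2 Hdac4 alleles is null in Hdac4HET mice, and in Dble::R6/2 mice the transgene comes on top of that null allele, so every mouse compared here had a single working copy of Hdac4, and the transgene was the genotype that set the groups apart. The strain label was CBA X C57Bl/6, no drug was given, and the labels named 5 female and 5 male Dble::R6/2 mice and 4 female and 5 male Hdac4HET mice. The 9 WT and 9 R6/2 mice, which have both copies of Hdac4, entered the model for its estimate of the spread and served to compare the same transgene effect without the null allele. R6/2 mice model an N-terminal fragment of mutant huntingtin and are not a model of the full-length protein.

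Huntingtin with an expanded glutamine tract aggregates in neuronal nuclei, and neurons that carry it have less RNA of many genes of signalling and synaptic transmission. In the cortex, activity reaches the nucleus through calcium and cyclic AMP, which switch on immediate early genes such as Egr2 and Arc within minutes, and inhibitory interneurons are told apart by the neuropeptides they store. HDAC4 is a class IIa histone deacetylase that binds MEF2 transcription factors. The question of the comparison was what the transgene changes in cortex when HDAC4 is already reduced.

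Expression was given as 1 log2 value for each of 45037 probe sets on each array, so that a difference of 1 is a doubling, and each of the 18193 genes with a single symbol was read from its brightest probe set, the one of highest mean level across the 37 arrays. Arrays correlated at 0.993 to 0.998 within Hdac4HET and at 0.994 to 0.998 within Dble::R6/2. The arrays stood apart in a way that touches the results below. The mean log2 level of 19 markers of the olfactory bulb, the structure in front of the cortex, lay at 6.21 to 6.46 on the WT arrays and was above all of these on 7 of 9 Hdac4HET arrays, at 8.11, 6.48, 6.93, 7.88, 8.02, 7.78 and 6.84 on replicates 1, 3, 4, 5, 6, 7 and 9. Among Dble::R6/2 arrays it was above them only on replicate 10, at 6.96. Setting aside the arrays more than 0.2 above every WT array left 3 Hdac4HET and 9 Dble::R6/2 arrays, and the values from these are given below as values without the bulb arrays. Xist and Y-linked genes did not match the sex given by the label for replicates 1, 5 and 9 of Hdac4HET, of which 5 and 9 carried RNA of both sexes, nor for replicates 1 and 9 of Dble::R6/2. In whole cortex, fewer cells of a type and less RNA per cell cannot be told apart.

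A probe set was counted as higher or lower when its Benjamini-Hochberg adjusted p, from a limma model of all 37 arrays, was under 0.05 and its level differed by more than 1.3-fold. By this rule 3196 of 45037 probe sets (7.1%) changed, 911 higher (2.02%) and 2285 lower (5.07%) in Dble::R6/2. Among genes, 473 were higher (2.6%) and 743 lower (4.08%). Adjusted p alone, with no limit on size, marked 42.5% of genes, 5163 genes as higher (28.4%) and 2563 as lower (14.1%), so small differences were more often upward and large ones more often downward. The 2 groups did not overlap on any array for 1586 genes that were higher (8.72%) and 781 that were lower (4.29%), and among probe sets for 2597 (5.77%) and 1599 (3.55%). The median change over all genes was 0.04. Without the bulb arrays 1228 probe sets were higher and 2004 lower, and 2361 of the 3196 were changed in the same direction.

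**Figure D1:**
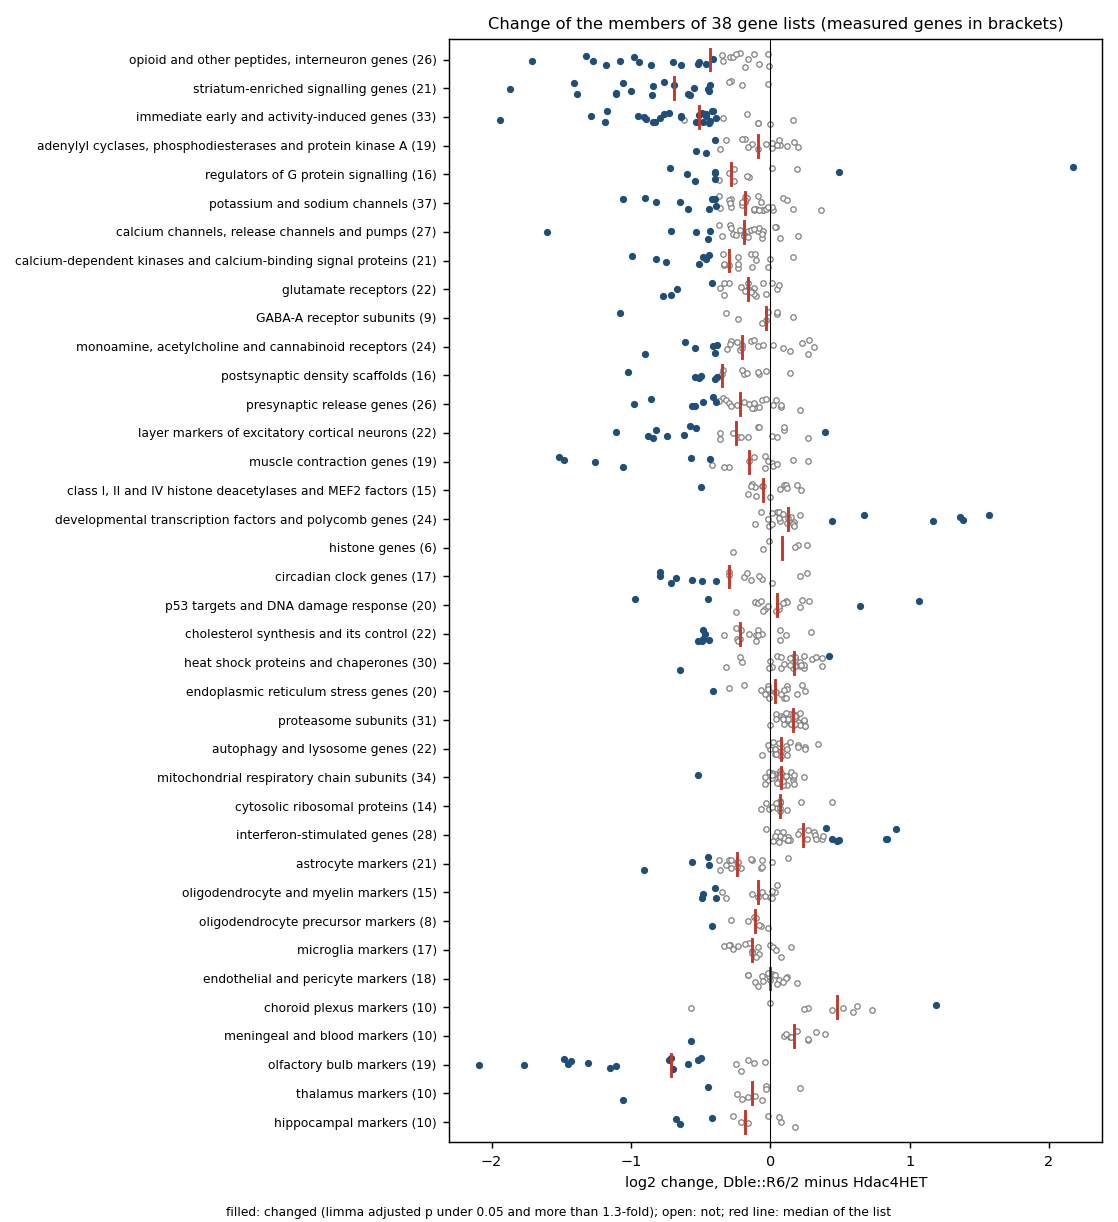
Difference in log2 level between Dble::R6/2 and Hdac4HET cortex (x axis) for each measured member of 38 gene lists (rows, number of genes in brackets), with filled points for genes counted as changed and a red line at the median of each list. The peptide, striatum-enriched, immediate early and olfactory bulb lists have medians of −0.44, −0.69, −0.51 and −0.71, and the proteasome subunits lie within 0 to 0.25.

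Hdac4 was measured first, since both groups carry the null allele. Its log2 level was 7.8 to 8.02 (median 7.91) in Hdac4HET and 7.7 to 7.98 (median 7.77) in Dble::R6/2 cortex, with overlapping groups. The mean was 7.92 ± 0.07 (SD, n = 9) against 7.79 ± 0.09 (n = 10), a difference of −0.13 (standard error 0.04, adjusted p = 0.0127 in limma) that is under the 1.3-fold limit. In WT cortex the same probe set stood at 8.48 ± 0.1. Mouse Htt, the endogenous huntingtin gene, had a level of 8.95 ± 0.05 in Hdac4HET and 9.01 ± 0.06 in Dble::R6/2 cortex (adjusted p = 0.158). The human transgene itself was not analysed here.

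The largest rise was that of Rgs13, a regulator that shortens G protein signals and is best known from immune cells. Its log2 level was 3.19 to 4.59 (median 4.12) on the Hdac4HET arrays and 5.71 to 6.57 (median 6.16) on the Dble::R6/2 arrays. Every Dble::R6/2 array was above every Hdac4HET array, and the mean was higher by 2.17 on the log2 scale with a standard error of 0.12 (adjusted p = 5.62e-17). No detection calls were used here, so that low levels, such as the Hdac4HET means of 4.02 for Rgs13 and 3.79 for Pou4f1, were not tested against background. The predicted gene Gm2102 moved from 5.62 to 6.37 (median 5.92) to 7.82 to 8.16 (median 7.96), again with no overlap and a change of 2.04 (standard error 0.08). Its second probe set, at a log2 level near 4, differed by −0.06 (adjusted p = 0.473).

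Transcription factors of development made up much of the rest of the list of rises. Pou4f1, a POU homeodomain factor of sensory neurons, went from 3.43 to 4.12 (median 3.74) in Hdac4HET to 4.9 to 5.98 (median 5.36) in Dble::R6/2 cortex, a change of 1.57 (standard error 0.15, adjusted p = 4e-11). Twist1, a basic helix-loop-helix factor of mesoderm, went from 4.41 to 4.77 (median 4.64) to 5.37 to 6.7 (median 6.04), and Onecut2, a cut homeodomain factor of liver and early neurons, from 5.24 to 5.87 (median 5.52) to 6.67 to 7.07 (median 6.86). Sfmbt2, a polycomb group gene that is imprinted in the placenta, had a median of 6.25 (5.93 to 6.57) against 7.43 (7.15 to 7.55). None of these groups overlapped, and the changes of Twist1, Onecut2 and Sfmbt2 were 1.38, 1.36 and 1.16 (standard errors 0.15, 0.08 and 0.08). The gene lists here and below were chosen with earlier results of these data known, so their shares describe and do not test them. Of the 24 measured members of a list of developmental transcription factors and polycomb genes, 6 were higher (25% of the list against 2.6% of all genes) and none was lower. The other 2 were Hoxb5 at 0.67 and Cbx8, a reader of the polycomb mark, at 0.44. The list as a whole moved little, with a median change of 0.12, and Ezh2, Suz12 and Eed, the core of polycomb repressive complex 2, had changes of −0.01, 0.01 and 0.21.

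Scn9a, a voltage-gated sodium channel of pain-sensing neurons, had a level of 4.1 to 4.7 (median 4.51) in Hdac4HET and 5.28 to 6.01 (median 5.65) in Dble::R6/2 cortex, a change of 1.2 (standard error 0.14). Of its 5 probe sets 2 were higher and the others ranged from −0.02 to 0.15. AW495222 and Gm4988, both transcripts without a named protein, were 2.23-fold and 2.17-fold higher, with no overlap of the groups. Without the bulb arrays AW495222 changed by 0.62 (adjusted p = 0.0454).

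The remaining 3 of the 12 largest rises came from genes that varied widely within a group. Baiap2l1, a protein that bends membranes at actin protrusions, ranged from 3.46 to 9.11 (median 7.08) on the Hdac4HET arrays and from 7.89 to 8.96 (median 8.11) on the Dble::R6/2 arrays. The change of 2.05 had a standard error of 0.59 (adjusted p = 0.00514), and both of its probe sets were higher. Tmem267, a membrane protein of unknown function, ranged from 4.55 to 8.15 (median 6.99) and from 5.13 to 8.68 (median 8.22), with a change of 1.25 (standard error 0.43). Sostdc1, a secreted inhibitor of BMP and Wnt signals that is high in choroid plexus, ranged from 4.85 to 6.38 (median 4.97) and from 5.59 to 8.2 (median 6.33). The 3 pairs of groups overlapped. Without the bulb arrays Sostdc1 changed by 0.53 (adjusted p = 0.515), while Baiap2l1 and Tmem267 changed by 2.19 and 1.73 (adjusted p = 0.0357 and 0.0346). Without Hdac4HET replicate 3 as well, which left 2 Hdac4HET arrays, Baiap2l1 changed by 1.3 (adjusted p = 0.368 in limma). In R6/2 against WT cortex Baiap2l1, Tmem267 and Sostdc1 changed by −0.84, 0.08 and 0.61. None passed there (adjusted p = 0.283, 0.907 and 0.157 in limma). The Tmem267 mean was 7.97 in WT, 6.68 in Hdac4HET and 7.94 in Dble::R6/2 cortex. In the same order the means were 7.84, 6.19 and 8.24 for Baiap2l1 and 6.32, 5.34 and 6.53 for Sostdc1. The SD of Baiap2l1 was 0.08 in WT, 2.12 in Hdac4HET and 1.8 in R6/2 cortex.

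**Figure D2:**
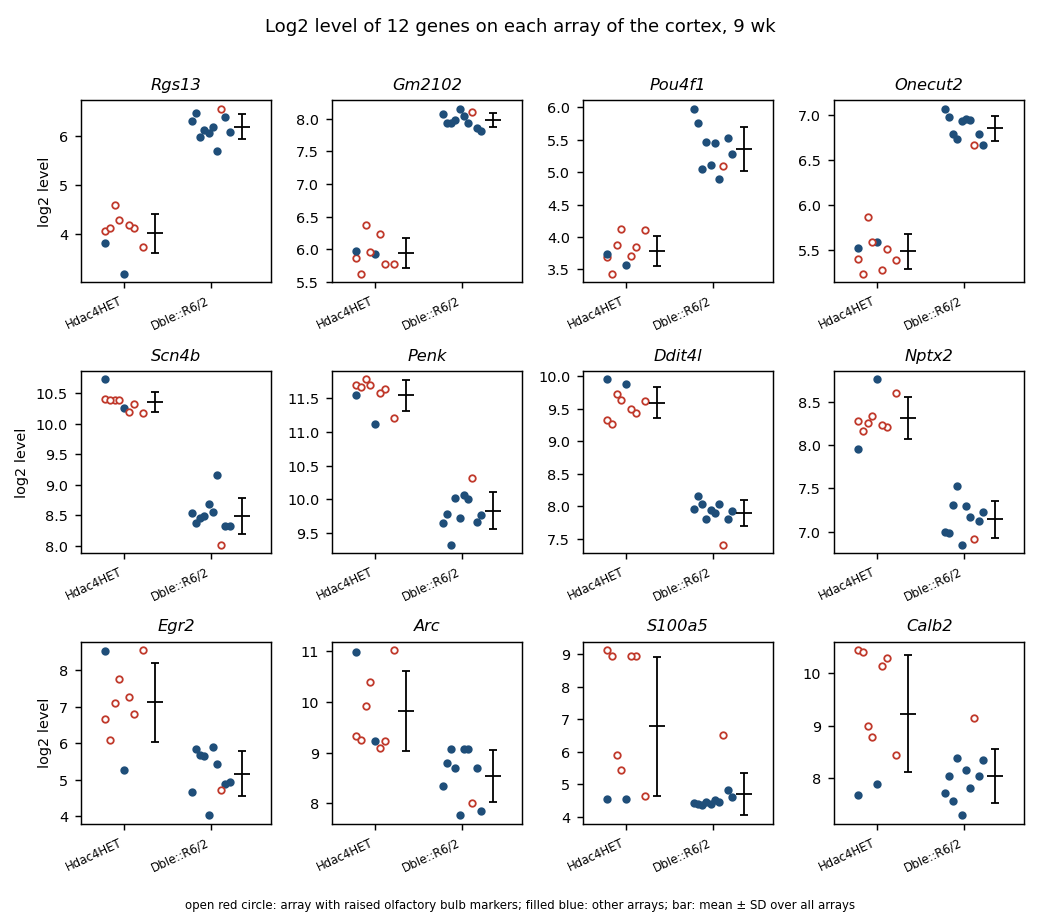
Log2 level (y axis) of 12 genes on each Hdac4HET and Dble::R6/2 array (points), with open red circles for arrays with raised olfactory bulb markers and bars for the mean ± SD. The groups do not overlap for Rgs13, Gm2102, Pou4f1, Onecut2, Scn4b, Penk, Ddit4l, Nptx2 and Arc, they overlap for Egr2, and for S100a5 and Calb2 the high Hdac4HET values lie on the open red arrays.

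Among the 12 largest falls, Scn4b, Abi3bp and Fst were the 3 with the largest change whose groups did not overlap. Scn4b, the beta subunit that lets sodium channels reopen during fast firing, was at 10.18 to 10.73 (median 10.39) in Hdac4HET and 8.02 to 9.16 (median 8.47) in Dble::R6/2 cortex, so that 27.4% of the level was left. Abi3bp, a matrix protein, fell from a median of 8.0 (7.45 to 8.53) to 6.25 (5.62 to 6.56). Fst, follistatin, the secreted blocker of activins, fell from 6.76 (6.19 to 7.56) to 4.9 (4.65 to 5.33). The 3 changes were −1.87, −1.85 and −1.85 with standard errors of 0.11, 0.14 and 0.13, and without the bulb arrays they were −1.84, −1.79 and −1.8.

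Ddit4l, an inhibitor of mTORC1 signalling, had levels of 9.26 to 9.95 (median 9.62) and 7.41 to 8.16 (median 7.93), with all 3 of its probe sets lower. Ryr1, the calcium release channel of skeletal muscle that neurons also make, had levels of 6.71 to 7.36 (median 7.15) and 5.13 to 5.8 (median 5.58), and 32.9% of its level was left. Lemd1, a LEM domain protein mostly known from testis, had levels of 5.54 to 6.09 (median 6.03) and 4.08 to 4.74 (median 4.45). None of these groups overlapped, and the adjusted p was 6.6e-18, 1.93e-17 and 2.04e-13.

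Of the 12 largest falls 3 rested on the Hdac4HET arrays with raised olfactory bulb markers. S100a5, a calcium-binding protein of olfactory neurons, ranged from 4.54 to 9.14 (median 5.89) in Hdac4HET and from 4.37 to 6.51 (median 4.45) in Dble::R6/2 cortex. Doc2g, a synaptic protein of bulb neurons, ranged from 5.99 to 9.17 and from 5.54 to 6.83. Shisa3 ranged from 4.13 to 7.28 and from 3.98 to 4.24. With all arrays the changes were −2.09, −1.77 and −1.51, and without the bulb arrays they were −0.08 (adjusted p = 0.634), −0.38 (adjusted p = 0.00258) and −0.11 (adjusted p = 0.539).

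Neuropeptides and interneuron genes were lower. Of 26 measured members, 14 were lower (53.8% of the list against 4.08% of all genes), none was higher, and the median change was −0.44. Penk, the precursor of the enkephalins, fell from 11.12 to 11.78 (median 11.63) in Hdac4HET to 9.33 to 10.31 (median 9.78) in Dble::R6/2 cortex, a change of −1.71 with a standard error of 0.13 (adjusted p = 3.09e-13). Pdyn, the precursor of the dynorphins, fell from 7.07 to 7.4 (median 7.25) to 5.7 to 6.05 (median 5.92), and 40% of its level was left. Crh, the stress peptide corticotropin-releasing hormone, fell from 8.1 to 8.65 (median 8.37) to 6.87 to 7.43 (median 7.07). These 3 groups did not overlap, and without the bulb arrays the changes were −1.51, −1.25 and −1.43.

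The other falling members included markers of interneurons. Vip, Crhbp, Npy and Sst, whose cells can overlap, fell by 1.08, 0.98, 0.94 and 0.86 on the log2 scale. The groups did not overlap for these genes, nor for Reln and Cort, which fell by 0.7 and 0.46. Gad1, the enzyme that makes most GABA, fell by 0.52 with no overlap, and Tac2, Tac1 and Cck fell by 0.64, 0.51 and 0.41. Pvalb, Calb1 and Lhx6 had changes of −0.34, −0.16 and −0.12 and did not pass the limit of size, and the peptide genes Nts, Adcyap1 and Vgf had changes of −0.08, −0.02 and −0.01. Calb2, calretinin, which bulb interneurons also make, ranged from 7.68 to 10.45 in Hdac4HET and from 7.29 to 9.14 in Dble::R6/2 cortex. Its change of −1.18 became −0.07 (adjusted p = 0.885) without the bulb arrays, where 12 of the 26 members were lower.

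Genes of cyclic AMP and dopamine signalling that are richest in striatum were lower in 17 of 21 members (81% of the list against 4.08% of all genes). The median change was −0.69. Their mean log2 level was 9.47 to 9.9 on the Hdac4HET arrays and 8.84 to 9.23 on the Dble::R6/2 arrays, with no overlap. Gpr6, a receptor coupled to cyclic AMP, fell from 7.89 to 8.74 (median 8.54) to 6.51 to 7.64 (median 6.95). Ppp1r1b, which encodes the phosphatase inhibitor DARPP-32, fell from 9.82 to 10.43 (median 10.33) to 8.44 to 9.16 (median 8.94). The log2 changes were −1.41 (standard error 0.17) and −1.39 (standard error 0.14).

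Both main dopamine receptors were lower, Drd2 by −1.11 and Drd1 by −0.85, and so were Rgs9, which ends dopamine receptor signals, by −1.11 (standard error 0.13), Rasd2 by −1.06, Rasgrp2 by −1.0 and the phosphodiesterase Pde10a by −0.76. Adcy5 and Gnal, the cyclase and the G protein alpha subunit behind these receptors, changed by −0.43 and −0.69. The 4 members that did not pass were Dclk3, Ptpn5, Foxp1 and Strn, at −0.3, −0.28, −0.2 and −0.02. With the bulb arrays left out 13 of 21 members were lower, and Gpr6, Ppp1r1b and Rgs9 changed by −1.15, −1.24 and −0.96. How much striatal tissue each cortex sample held was not analysed here.

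**Figure D3:**
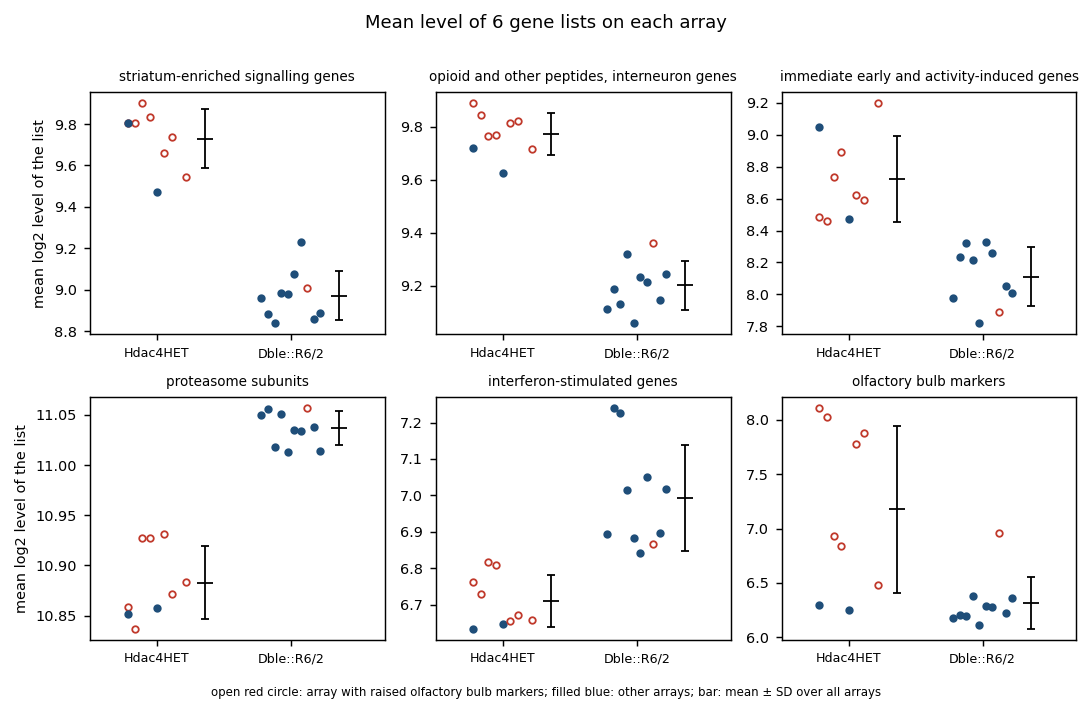
Mean log2 level of the members of 6 gene lists (y axis) on each Hdac4HET and Dble::R6/2 array (points), with open red circles for arrays with raised olfactory bulb markers and bars for the mean ± SD. The striatum-enriched, peptide, immediate early, proteasome and interferon lists separate the groups on every array, the first 3 downward and the last 2 upward, while the bulb list is spread from 6.25 to 8.11 within Hdac4HET.

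Of genes switched on early by activity, 26 of 33 were lower in Dble::R6/2 cortex (78.8% of the list against 4.08% of all genes). None was higher, and the median change was −0.51. Egr2, a zinc finger factor, had levels of 5.26 to 8.55 (median 7.11) in Hdac4HET and 4.03 to 5.89 (median 5.19) in Dble::R6/2 cortex. The groups overlapped, and the change of −1.94 had a standard error of 0.39 (adjusted p = 0.000102). Arc, which takes AMPA receptors into the cell, had levels of 9.09 to 11.03 (median 9.32) and 7.76 to 9.08 (median 8.7), so that the lowest Hdac4HET array lay just above the highest Dble::R6/2 array. Npas4, a factor switched on only by calcium, had levels of 6.88 to 8.39 (median 7.84) and 5.63 to 7.58 (median 6.22). Nptx2, a pentraxin secreted at excitatory synapses, varied less between mice, at 7.95 to 8.76 (median 8.25) and 6.85 to 7.53 (median 7.14), a change of −1.17 (standard error 0.09, adjusted p = 7.01e-14).

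Slower activity-induced genes fell too, among them Inhba by 0.95, Ptgs2 by 0.91, Bdnf by 0.53 and Homer1 by 0.41. Fos changed by −0.62 and did not pass the test, and Fosb, Jun, Egr4 and Nr4a3 had changes of 0.16, 0.00, −0.09 and −0.09. The spread within Hdac4HET cortex was wide for the fastest genes, with an SD of 1.08 for Egr2 and 0.79 for Arc against 0.24 for Nptx2. With the bulb arrays left out 23 of the 33 members were lower, and without a further array, Hdac4HET replicate 3, whose bulb mean was only 0.02 above the highest WT array, 17 were. Leaving out in addition the arrays whose sex-linked genes did not match the label, 12 were lower. The counts of 17 and 12 rest on 2 Hdac4HET arrays.

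The promoters of 4 of the lower immediate early genes are shown because each holds a sequence that an activity-dependent factor is known to bind. They are the 250 bases before the start of transcription from RefSeq on GRCm38.p6, 5′ to 3′ on the strand of the gene, with the motif in capitals. Egr2 (chr10:67537316-67537565, plus strand) holds a CArG box, the site of serum response factor. Btg2 (chr1:134079156-134079405, minus strand) and Dusp1 (chr17:26508473-26508722, minus strand) hold TGACGTCA, the cyclic AMP response element (CRE). Fosl2 (chr5:32136222-32136471, plus strand) holds GCGGGGGCG, the site of EGR factors.
Egr2: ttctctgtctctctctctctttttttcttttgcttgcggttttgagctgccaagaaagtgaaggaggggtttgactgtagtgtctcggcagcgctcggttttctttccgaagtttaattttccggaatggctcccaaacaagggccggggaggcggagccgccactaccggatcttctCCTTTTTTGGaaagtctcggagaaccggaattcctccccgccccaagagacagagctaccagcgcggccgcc
Btg2: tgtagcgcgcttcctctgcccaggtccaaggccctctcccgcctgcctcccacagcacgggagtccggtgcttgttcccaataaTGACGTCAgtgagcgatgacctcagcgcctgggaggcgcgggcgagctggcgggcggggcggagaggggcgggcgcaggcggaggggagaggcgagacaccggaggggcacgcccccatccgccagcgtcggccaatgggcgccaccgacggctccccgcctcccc
Fosl2: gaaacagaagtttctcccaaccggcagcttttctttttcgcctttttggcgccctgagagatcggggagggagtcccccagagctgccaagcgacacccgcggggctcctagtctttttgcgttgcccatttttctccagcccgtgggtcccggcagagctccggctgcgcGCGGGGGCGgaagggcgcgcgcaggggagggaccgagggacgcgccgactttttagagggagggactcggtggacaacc
Dusp1: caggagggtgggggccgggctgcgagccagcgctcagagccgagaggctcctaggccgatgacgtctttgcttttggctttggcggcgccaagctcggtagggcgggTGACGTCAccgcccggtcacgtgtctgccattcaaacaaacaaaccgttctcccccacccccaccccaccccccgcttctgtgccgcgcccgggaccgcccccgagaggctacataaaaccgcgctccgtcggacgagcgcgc

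Btg2, a brake on cell division, Fosl2, a partner of Jun, and Dusp1, a phosphatase of MAP kinases, were lower by 0.84, 0.83 and 0.79. Promoters of 250 bases before to 50 after the start were given for 24 of the 33 list members, as 36 starts in all, of 32851 starts of 27025 genes. A gene was counted once, whichever of its starts held the motif, so genes with several starts had more sequence searched. On either strand, TGACGTCA was found for 2 of the 24 genes (8.33%) against 2.03% of all genes, a CArG box for 2 (8.33%) against 1.81%, and GCGGGGGCG for 3 (12.5%) against 3.31%. The shorter TGACG, which every TGACGTCA also holds, was found for 16 of the 24 (66.7%) against 23% of all genes, and CACGTG for 6 (25%) against 8.09%. By start, the shares over all 32851 were 1.79% for TGACGTCA, 1.63% for the CArG box, 2.91% for GCGGGGGCG, 20.8% for TGACG and 7.15% for CACGTG. Of genes lower in Dble::R6/2 cortex as a whole, 27% had TGACG in a promoter, and of genes that were higher, 32.8% did, against 23% of all genes. These are matches of letters and say nothing of binding.

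Further along the same pathways the changes were smaller and fell on single members. Of 19 adenylyl cyclases, phosphodiesterases and protein kinase A genes 3 were lower (15.8% against 4.08% of all genes) and none higher, and 4 were lower with the bulb arrays left out. These were the cyclic AMP phosphodiesterase Pde7b at −0.53, Akap5, which anchors protein kinase A at synapses, at −0.46 and the calcium-stimulated cyclase Adcy1 at −0.4. Pde7b was at 10.17 to 10.45 (median 10.29) in Hdac4HET and 9.63 to 9.97 (median 9.77) in Dble::R6/2 cortex, with no overlap. The catalytic and regulatory subunits of protein kinase A had changes of −0.09 to 0.2. Among 16 regulators of G protein signalling, 6 were lower (37.5%, and 5 genes with the bulb arrays left out) and 2 higher (12.5% against 2.6% of all genes). Rgs11 and Rgs4, which act on neuronal G proteins, fell by 0.72 and 0.6 and Rgs20 by 0.54, while Rgs19 was higher by 0.49 beside Rgs13.

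Calcium-dependent kinases and calcium-binding signal proteins had 7 of 21 members lower (33.3% against 4.08% of all genes, and 8 with the bulb arrays left out). None was higher, and the median change was −0.3. Camkk2, the kinase that switches on the CaM kinases, had levels of 11.48 to 11.77 (median 11.61) and 10.5 to 10.77 (median 10.56), so that 50.3% of the RNA was left, with a standard error of 0.04 on the change of −0.99 and all 4 of its probe sets lower. Itpka, a kinase of dendritic spines, and Camk1g were at −0.82 and −0.75, and Camk4 and Camk2a at −0.51 and −0.46. Of 27 calcium channels, release channels and pumps, 5 were lower (18.5% against 4.08% of all genes) and none higher, and 5 were lower with the bulb arrays left out. Beside Ryr1 these were the sodium-calcium exchanger Slc8a1 at −0.71, the channel subunits Cacna2d3 at −0.53 and Cacng3 at −0.45 and the calcium pump Atp2b2 at −0.43. Without the bulb arrays Slc8a1 changed by −0.47 (adjusted p = 0.0813 in limma). With all arrays its other probe sets changed by 0.04, 0.09 and 0.2 and were not counted as changed.

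Of 37 potassium and sodium channels 9 were lower (24.3% against 4.08% of all genes), and no member of the list was higher. With the bulb arrays left out 10 were lower and 1 higher. Kcnip2, which sets the A-type potassium current, was at 10.16 to 10.53 (median 10.31) in Hdac4HET and 9.4 to 9.65 (median 9.52) in Dble::R6/2 cortex, a change of −0.82 (standard error 0.06). Kcnh5 and Kcnh3, channels of the ether-a-go-go family, changed by −0.9 and −0.65, and Kcnj9, a channel opened by G proteins, by −1.06 with overlapping groups and a standard error of 0.25. The channels Scn1a, Scn2a, Scn8a and Kcnd2 had changes of −0.02, 0.12, −0.09 and −0.12. Scn4b and Scn9a were not on this list.

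Receptors changed in a few members each. Gabrd, the delta subunit of GABA-A receptors outside synapses, was at 9.54 to 9.82 (median 9.64) in Hdac4HET and 8.35 to 8.75 (median 8.64) in Dble::R6/2 cortex, a change of −1.08 (standard error 0.06, adjusted p = 1.22e-17). It was the only one of 9 GABA-A subunits that passed (11.1% against 4.08% of all genes), and the other 8 had changes of −0.32 to 0.16. One of its probe sets was lower and the other did not pass. Of 22 glutamate receptor genes 4 were lower (18.2% against 4.08% of all genes, and 3 genes with the bulb arrays left out). Of the 4, 3 were metabotropic receptors that lower cyclic AMP. Grm4, Grm2 and Grm3 fell by 0.77, 0.71 and 0.67 with no overlap, and the kainate receptor subunit Grik1 by 0.42. AMPA receptor subunits Gria1 to Gria4 had changes of −0.33 to −0.12. Among 24 receptors for monoamines, acetylcholine, opioids and cannabinoids, 6 were lower (25% against 4.08% of all genes, and 7 genes with the bulb arrays left out). They were led by the histamine receptor Hrh3 at −0.9, the serotonin receptor Htr1b at −0.61 and the dynorphin receptor Oprk1 at −0.54. The cannabinoid receptor Cnr1 was at −0.29.

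Synaptic genes changed in part of their members on both sides of the synapse. Of 16 scaffolds of the postsynaptic density, 6 were lower (37.5% against 4.08% of all genes), 10 lower members did not overlap between the groups (against 4.29% of all genes), and the median change was −0.35. Dlgap2, which links PSD-95 to Shank proteins, fell from 8.61 to 9.04 (median 8.91) to 7.43 to 8.18 (median 7.89), and Cnksr2, Homer2, Synpo and Dlg4, which encodes PSD-95, were at −0.54, −0.51, −0.5 and −0.4. Of 26 genes of transmitter release, 7 were lower (26.9% against 4.08% of all genes) and 19 did not pass. The complexins Cplx3 and Cplx2, which hold vesicles ready to fuse, were at −0.98 and −0.86, where the third member of the list, Cplx1, was at −0.13. Cplx2 was among the brightest probe sets, at 12.84 to 13.12 in Hdac4HET and 11.76 to 12.52 in Dble::R6/2 cortex. Rph3a, which binds Rab3, and the vesicle protein Vamp1 fell by 0.56 and 0.54, and the core proteins Snap25, Syt1, Vamp2 and Syn1 had changes of −0.12, −0.08, −0.06 and −0.03. Leaving out the bulb arrays, 8 scaffolds and 9 release genes were lower.

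Excitatory neurons were followed through 22 markers of cortical layers, of which 8 were lower (36.4% against 4.08% of all genes) and 1 higher (4.55% against 2.6%). With the bulb arrays left out 9 were lower and 2 higher. Lamp5 and Wfs1, markers of the upper layers, were at −1.11 and −0.88, Cux2 at −0.58, and Ccn2, a marker of the deepest sublayer, at −0.84. Ccn2 was at 9.57 to 9.84 in Hdac4HET and 8.77 to 9.00 in Dble::R6/2 cortex. The layer 5 factor Fezf2 was lower by 0.53, and Ntsr1, a receptor of layer 6 neurons, was higher by 0.39. Tle4, Foxp2 and Tbr1, which also mark the deep layers, had changes of 0.1, −0.09 and −0.16. Nectin3 was at −0.82 on its brightest probe set, and 1 of its 6 probe sets, at a mean level of 5.0 in Hdac4HET, was higher by 0.57 while 2 were lower.

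Of 19 genes of muscle contraction measured in cortex, 6 were lower (31.6% against 4.08% of all genes). Myh7, a slow myosin heavy chain, fell from 7.41 to 8.69 (median 8.05) to 6.15 to 7.05 (median 6.58). Myl4, a myosin light chain, fell from 9.04 to 9.9 (median 9.38) to 7.56 to 8.41 (median 7.93), and Tnnc1 and Tnnt1, troponins of slow muscle, were at −1.26 and −1.06. The groups did not overlap for these 4, and without the bulb arrays the changes were −1.56, −1.67, −1.44 and −0.94. Myl3, Myh6, Actc1 and Ttn had changes of −0.02, 0.01, 0.02 and 0.05. Of the class I, II and IV histone deacetylases and MEF2 factors, 1 of 15 was lower, a share of 6.67% near the 4.08% of all genes. It was Mef2c at −0.5 (standard error 0.08), whose level was 12.41 to 12.86 in Hdac4HET and 11.75 to 12.51 in Dble::R6/2 cortex. Another Mef2c probe set was lower at −0.44, while those at −0.3, −0.15 and −0.1 did not pass. The other deacetylases lay between −0.14 and 0.22.

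Of 17 circadian clock genes 7 were lower (41.2% against 4.08% of all genes) and 10 did not pass. Hlf and Dbp, PAR bZIP factors that follow the clock, were at −0.79 and −0.71, the repressor gene Ciart at −0.79 and Bhlhe40 at −0.68. Only Hlf and Npas2 among the 7 did not overlap between the groups, and core members Arntl and Clock had changes of 0.01 and 0.21. Without the bulb arrays 4 members were lower, with Ciart at −0.49 (adjusted p = 0.0891) and Dbp at −0.37 (adjusted p = 0.116). The hour at which each cortex was taken was not analysed here.

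In the list of p53 targets and the DNA damage response, 2 of 20 members were higher (10% against 2.6% of all genes) and 2 lower (10% against 4.08%). Brca1, which acts in DNA repair, was at 5.14 to 5.79 (median 5.43) in Hdac4HET and 6.16 to 6.87 (median 6.43) in Dble::R6/2 cortex, a change of 1.08 (standard error 0.11) with 3 of 4 probe sets higher. Cdkn1a, the cell cycle inhibitor p21, moved the other way, from 8.53 to 8.91 (median 8.74) to 7.37 to 8.04 (median 7.86). Pmaip1 was higher by 0.64 and Gadd45a lower by 0.45, and without the bulb arrays Pmaip1 changed by 0.56 (adjusted p = 0.0561). The p53 targets Mdm2, Bbc3 and Sesn1 had changes of 0.11, −0.11 and −0.04.

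Of 22 genes of cholesterol synthesis and its control, 6 were lower (27.3% against 4.08% of all genes) and none higher, with a median change of −0.21. Insig1, Fdft1 and Hmgcs1 fell by 0.52, 0.49 and 0.48 with no overlap, Cyp51 and Mvd by 0.48 and 0.44, and Idi1 by 0.47. Insig1 was at 9.00 to 9.49 (median 9.31) in Hdac4HET and 8.51 to 8.93 (median 8.8) in Dble::R6/2 cortex. Srebf2, the factor that switches this pathway on, had a change of −0.22.

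Genes of protein quality control differed by small and steady amounts in the upward direction. No proteasome subunit passed the 1.3-fold limit, but 28 of 31 were higher by adjusted p alone (90.3% of the list against 28.4% of all genes), none was lower, and 13 did not overlap between the groups (against 8.72% of all genes). Psmd6 was at 10.87 to 11.02 (median 10.92) in Hdac4HET and 11.12 to 11.24 (median 11.16) in Dble::R6/2 cortex, and the change of 0.24 had a standard error of 0.02. Psmd1 was at 0.25. Of 30 heat shock proteins and chaperones 22 were higher by adjusted p alone (73.3% against 28.4% of all genes), 4 were lower (13.3% against 14.1%), and 16 higher members did not overlap (against 8.72% of all genes). Cct3, a subunit of the chaperonin that folds actin and tubulin, was the member past the limit, from 11.03 to 11.2 (median 11.12) to 11.49 to 11.6 (median 11.53). Other chaperonin subunits, Cct4, Cct8 and Cct2, were at 0.37, 0.33 and 0.24. The stress-induced Hspa1b went the other way at −0.65.

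The endoplasmic reticulum stress list did not share this pattern, with a median change of 0.04, 4 of 20 members higher (20% against 28.4% of all genes) and 3 lower (15% against 14.1%) by adjusted p alone, and Sdf2l1, an ER chaperone cofactor, lower by 0.41. Of 22 autophagy and lysosome genes 10 were higher by adjusted p alone (45.5% against 28.4% of all genes). Sqstm1, the cargo receptor p62, was at 10.95 to 11.19 (median 11.11) and 11.35 to 11.62 (median 11.42), a change of 0.34 with no overlap, and Gabarapl1 was at 0.2. Of 34 genes of the respiratory chain and its control, 20 were higher by adjusted p alone (58.8% against 28.4% of all genes), with a median change of 0.08. The exception past the limit was Ppargc1a, the coactivator of mitochondrial genes PGC-1 alpha. It fell from 10.13 to 10.48 (median 10.3) to 9.42 to 10.02 (median 9.93). Its other probe sets changed by −0.35, −0.25, −0.21 and −0.18 and did not pass the limit of size. Of 14 cytosolic ribosomal proteins, 8 were higher by adjusted p alone (57.1% against 28.4% of all genes) with a median of 0.07. Of 6 histone genes, 2 were higher (33.3% against 28.4% of all genes) and 1 lower (16.7% against 14.1%) by adjusted p alone, shares near those of all genes, with H2az1 at 0.18 and H3f3a at −0.27.

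Interferon-stimulated genes were higher in 7 of 28 members (25% of the list against 2.6% of all genes) and lower in none, with a median change of 0.23. Usp18, which cuts the interferon-induced tag ISG15 from proteins, was at 4.67 to 5.62 (median 4.9) in Hdac4HET and 5.43 to 6.77 (median 5.82) in Dble::R6/2 cortex. Ifit1, which binds foreign RNA, was at 5.44 to 6.29 (median 5.94) and 6.29 to 7.4 (median 6.74), and Oasl2 at 4.93 to 5.84 (median 5.28) and 5.71 to 6.74 (median 6.1). The groups overlapped at their edges for each of these, with changes of 0.9, 0.84 and 0.83 (standard errors 0.17, 0.16 and 0.15). Irf7, the factor that keeps the response going, was higher by 0.48 with no overlap. Mx1, Stat2 and Tap1 had changes of −0.03, 0.02 and 0.03. The count was 10 without the bulb arrays and 11 without the 5 arrays and the WT array whose sex-linked genes went against the label. Over all probe sets the higher calls also grew, from 911 to 1228 and to 1000 in these 2 settings.

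Markers of glia and vessels were measured as a check on the makeup of the samples. Of 21 astrocyte markers 4 were lower past the limit (19% against 4.08% of all genes) and 16 by adjusted p alone (76.2% against 14.1%), with a median of −0.24. Slc1a2, the main glutamate transporter, was at 12.7 to 13.18 (median 13.09) in Hdac4HET and 12.32 to 12.78 (median 12.4) in Dble::R6/2 cortex, and Slc4a4 and Slc7a10 were at −0.45 and −0.44. Hapln1, on this list but also made by neurons with perineuronal nets, was at −0.91. Gfap, which rises in reactive astrocytes, had a change of −0.06. Of 15 oligodendrocyte markers 4 were lower (26.7% against 4.08% of all genes), Mal, Ugt8a, Tspan2 and Mobp, at −0.49 to −0.39. By adjusted p alone 7 of the 15 were lower (46.7% against 14.1% of all genes) and none was higher. Mag, Cnp, Olig2 and Sox10 lay between 0.00 and 0.05 in size. Gpr17 was the 1 lower member of 8 precursor markers (12.5% against 4.08% of all genes), at −0.42.

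None of 17 microglia markers passed the limit, and 6 were lower by adjusted p alone (35.3% against 14.1% of all genes). Cd68 and Itgam had changes of −0.3 and −0.33. None of 18 endothelial and pericyte markers passed on its brightest probe set, with a median of −0.01. Rgs5 changed by 0.19 there, while another of its probe sets was lower at −0.58. Those at −0.25 and 0.2 did not pass the limit of size. The choroid plexus markers had a median of 0.48, with Sostdc1 past the limit and Ttr, the most abundant of them, at 0.59 without passing. Of 10 thalamus markers 2 were lower (20% against 4.08% of all genes), Tnnt1 at −1.06 and Ramp3 at −0.45. Of 10 hippocampal markers 3 were lower (30%), Trpc6 at −0.68, Pdzd2 at −0.65 and Prox1 at −0.42. Without the bulb arrays 2 hippocampal markers were lower, and Prox1 did not pass (adjusted p = 0.063 in limma). Among 10 meningeal and blood markers 1 was lower (10% against 4.08% of all genes). It was Alas2, the blood cell enzyme of haem synthesis, at −0.57 with overlapping groups, and without the bulb arrays at −0.39 (adjusted p = 0.285).

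The list with the lowest median was that of the olfactory bulb, at −0.71, with 14 of 19 members lower (73.7% against 4.08% of all genes). No member separated the groups. Beside S100a5 and Doc2g these included Tbx21, a factor of bulb output neurons, at 3.51 to 6.89 (median 4.59) in Hdac4HET and 3.35 to 3.93 (median 3.48) in Dble::R6/2 cortex, and Sp8, a factor of newborn bulb interneurons, at 4.35 to 7.64 and 4.13 to 5.98. Their changes of −1.48 and −1.45 became −0.17 and −0.07 without the bulb arrays, where 2 of the 19 members were lower. In R6/2 against WT cortex, where no array had a raised bulb mean, the list had a median of −0.05. The part of bulb RNA in the other changes was not tested.

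The same transgene was set against the WT background in R6/2 and WT mice, which share no array with the comparison above. There 683 genes were higher (3.75%) and 600 lower (3.3%), and among probe sets 1374 (3.05%) and 1363 (3.03%). Of the 743 genes lower in Dble::R6/2 against Hdac4HET cortex, 451 (60.7%, and 75.2% of the 600) fell there as well, and 1 rose. Of the 473 genes that were higher, 315 (66.6%, and 46.1% of the 683) were also higher there, and none was lower. For the lists the median changes with and without the null allele were −0.44 and −0.44 for peptides, −0.69 and −0.41 for striatum-enriched genes, −0.51 and −0.51 for immediate early genes, 0.12 and 0.12 for developmental factors, 0.16 and 0.13 for the proteasome and 0.23 and 0.28 for interferon-stimulated genes. Rgs13 changed by 2.17 and 2.21, Penk by −1.71 and −1.45 and Egr2 by −1.94 and −2.06. These differences were tested only through the interaction.

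**Figure D4:**
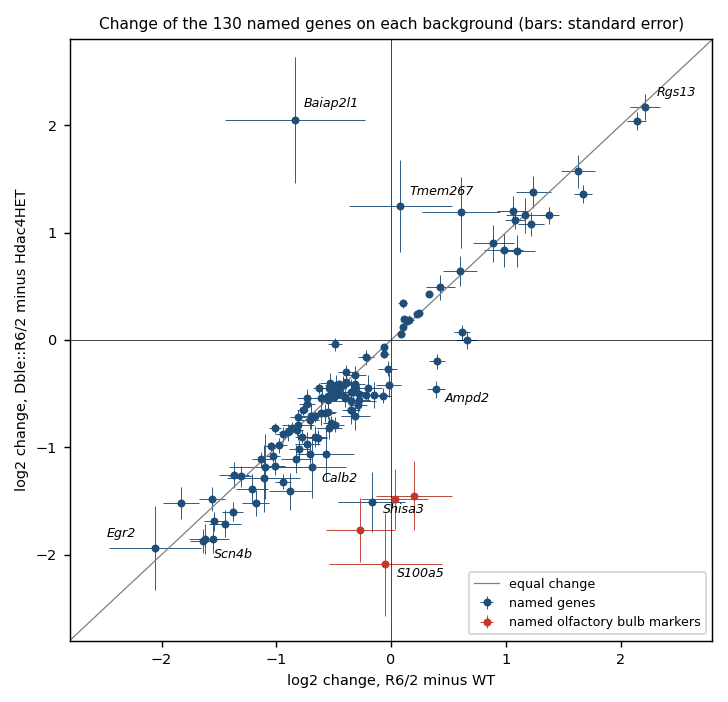
Difference in log2 level between Dble::R6/2 and Hdac4HET cortex (y axis) plotted over that between R6/2 and WT cortex (x axis) for the 130 genes named by rule, with bars for the standard error and a line of equal change. Most points lie along the line, such as Rgs13 at 2.17 and 2.21, and the named olfactory bulb markers in red lie below it near 0 on the x axis.

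The interaction asked whether the transgene effect differed between the backgrounds. It passed for 113 of 45037 probe sets (0.251%) and, by brightest probe set, for 34 of 18193 genes (0.187%). The lowest p was that of Ampd2, the AMP deaminase of brain, which was higher with the transgene on the WT background (10.86 ± 0.16 in WT and 11.24 ± 0.07 in R6/2 cortex) and lower on the Hdac4HET background (11.25 ± 0.26 and 10.79 ± 0.18), a difference between the effects of −0.85 (standard error 0.11, adjusted p = 8.62e-05). The fall on the Hdac4HET background was −0.46 with all arrays and −0.25 with the bulb arrays left out, under the 1.3-fold limit, and the second probe set of Ampd2 changed there by −0.1 (adjusted p = 0.107). Wdr53, Zfp182 and Mme, the peptidase neprilysin, were higher by 0.4, 0.62 and 0.66 on the WT background and changed by −0.2, 0.07 and 0.00 on the Hdac4HET background. Raly, an RNA-binding protein, was lower by 0.49 on the former and changed by −0.04 on the latter. The adjusted p of these 4 interactions was 0.00454, 0.00821, 0.00878 and 0.00941.

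Of the genes named from the lists, Pdyn and Ppargc1a also passed. Pdyn was at 6.88 ± 0.21 in WT and 5.94 ± 0.15 in R6/2 cortex, a smaller fall than the one from 7.23 ± 0.11 to 5.9 ± 0.09 on the Hdac4HET background (interaction −0.38, adjusted p = 0.04). The Pdyn interaction did not pass in 20 of the 37 fits that left out 1 array, nor with the bulb level as a covariate (adjusted p = 0.097) or without the arrays whose sex-linked genes did not match the label (adjusted p = 0.157). Ppargc1a changed by −0.07 on the WT background (adjusted p = 0.445) and by −0.52 on the Hdac4HET background (interaction −0.45, adjusted p = 0.0272). With the bulb arrays left out none of these 7 passed, with Ampd2 at −0.63 (adjusted p = 0.0554), Pdyn at −0.31 (adjusted p = 0.428) and Ppargc1a at −0.34 (adjusted p = 0.391). In all, 1 probe set then passed in limma, where 4414 had an unadjusted p under 0.05. That fit kept 3 Hdac4HET arrays. With the bulb level as a covariate on all 37 arrays, 149 probe sets passed. Ampd2, Zfp182, Wdr53, Mme, Raly and Ppargc1a were among them (adjusted p = 0.00158, 0.00605, 0.0214, 0.0243, 0.0243 and 0.0472 in limma).

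**Figure D5:**
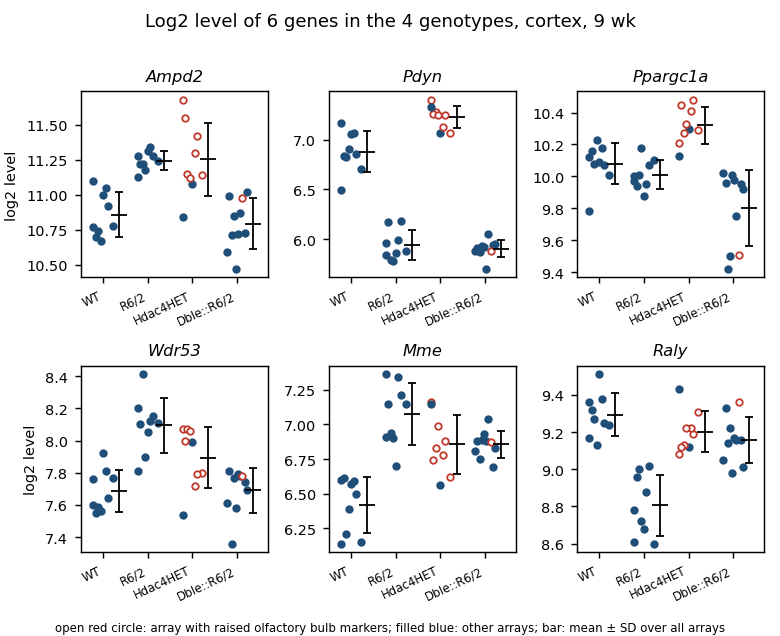
Log2 level (y axis) of 6 genes with a called interaction on each array of the 4 genotypes (points), with open red circles for arrays with raised olfactory bulb markers and bars for the mean ± SD. Ampd2, Wdr53 and Mme are higher in R6/2 than in WT cortex and not higher in Dble::R6/2 than in Hdac4HET cortex, and the 3 lowest Ppargc1a values are in Dble::R6/2 cortex.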

How the data were processed

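RNA from mouse cortex was hybridised to 37 whole-genome mouse Affymetrix arrays after 3′ labelling. The values deposited by the authors are on the log2 scale, with 1 for each probe set on an array. The steps of probe summary and normalisation were not given in the sources used here. According to the methods, arrays of low quality were left out without naming them, and all 37 arrays were used.

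The deposited log2 values were fitted by genotype with limma 3.58.1 in R 4.3.3 (lmFit, eBayes with a trend) over all 37 arrays, and p-values were adjusted over 45037 probe sets by the Benjamini-Hochberg method. A probe set was called at an adjusted p under 0.05 and a change above 1.3-fold. The fit was tested on simulated data. Of the probe sets 34945 had 1 gene symbol, 932 several and 9160 none, from the platform annotation updated through RefSeq, and a gene was read from its brightest probe set. Figures were drawn with matplotlib 3.10.9 in Python 3.11.15.

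Genes were named by rule: the 12 largest rises and falls, up to 4 called members of each of 38 lists or, in lists without a call, the 2 of lowest p, Hdac4, Htt and the 5 interactions with the lowest p. Other list members were picked to show the range of a list after their values were seen. The 38 lists held 838 genes, of which 756 were measured, and members and lists were chosen with earlier results of these data known. Each array is titled as a replicate of its genotype. Whether each came from a single mouse was not tested, and Hdac4HET replicates 5 and 9 carried RNA of both sexes. Litters are not given. The number of arrays limits the precision. Alternatives covered the thresholds, quantile normalisation, array weights, dim and cross-hybridising probe sets, covariates for sex or bulb level, a block on replicate number, the methods' t-test, and leaving out arrays. The alternative with a margin of 0.2 for the bulb markers was chosen after seeing the data.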

Additional observations from a re-analysis of the deposited data

Results flagged for a closer look

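Of 260 sets of values (130 genes in each of the 2 groups), 24 (9.2%) held an array whose gap to its nearest neighbour was wide for the range of its group by Dixon's test, where chance gives about 1 in 20. Dble::R6/2 replicate 10, the array with raised olfactory bulb markers, was such an array for S100a5 at 6.51, Doc2g at 6.83, Sp8 at 5.98, Ddit4l at 7.41, Adcy1 at 11.44, Sqstm1 at 11.62 and Slco1c1 at 10.06. Hdac4HET replicate 8 was one for Scn4b at 10.73, Grik1 at 7.08, Cplx3 at 8.86, Hapln1 at 7.74 and Mobp at 12.81. Hdac4HET replicate 1 was one for Mef2c at 12.41, Hlf at 10.68 and Prox1 at 5.30, and Hdac4HET replicate 7 for Lemd1 at 5.54. Dble::R6/2 replicate 5 stood apart for Tmem267 at 5.13, where the next array was at 7.52, and for Gpr6 at 7.64 and Rgs9 at 8.62. Dble::R6/2 replicate 4 stood apart for Grm2 at 8.49, Pmaip1 at 6.73 and Wdr53 at 7.36, replicate 7 for Pdyn at 5.70 and replicate 6 for Zfp182 at 6.72.

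The transgene effect differed between the Hdac4HET and WT backgrounds by the interaction term for Ampd2 (−0.85), Mme (−0.66), Wdr53 (−0.61), Zfp182 (−0.55), Ppargc1a (−0.45), Pdyn (−0.38) and Raly (0.44). None of the 7 passed without the arrays whose olfactory bulb markers were over 0.2 above every WT array, which left 3 Hdac4HET arrays. With the bulb level as a covariate all but Pdyn passed. Without the arrays whose sex-linked genes did not match the label, only Ampd2 passed (adjusted p = 0.00461 in limma). The part of the bulb arrays in the difference was not tested.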

How the results depend on the processing

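Of 3196 changed probe sets (911 higher, 2285 lower), every alternative without an array left out gave a count within 1.5 times, except adjusted p alone with 16562 (9537 and 7025), a ratio under 0.7 for lower calls with 2061 (1150 lower) and the bulb level as a covariate with 1474 higher. Leaving out 1 array gave 3010 to 3449 (880 to 1047 higher, 2120 to 2410 lower). Without every array whose bulb markers were above all WT arrays by any margin (the stricter set) 1042 were higher and 1733 lower. Of the 3196, 1922 were shared in the same direction and 3 were called the opposite way. Without those or the sex-discordant arrays 947 were higher and 1610 lower, with 2 called the opposite way. Each of these 2 fits kept only 2 Hdac4HET arrays.

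The interaction was less steady. Of 113 probe sets (31 higher, 82 lower), none passed without the stricter set or without arrays of either kind in limma (4062 and 4031 had an unadjusted p under 0.05), 1 passed with the 0.2 margin (0 higher, 1 lower) and 3 without the sex-discordant arrays (0 and 3). Other counts were 79 with the ratio (48 lower), 283 with array weights (63 and 220) and 436 by adjusted p alone (220 and 216). The bulb covariate gave 149 (68 and 81), and probe sets above the median level gave 97 (10 and 87). Leaving out 1 array gave 35 (without Hdac4HET replicate 5) to 262 (without WT replicate 7), with 11 to 74 higher and 24 to 188 lower. The cause was not tested.

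The replicate numbers do not pair mice, and with the number as a block 3083 probe sets changed (904 higher, 2179 lower) and 78 had an interaction (17 and 61), and of the 7 named interactions the block ended the call of Pdyn (adjusted p = 0.0644).

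The sign turned for S100a5 (0.23 with the bulb covariate), for Calb2 (0.15 without the stricter set, 0.11 without either kind, 0.14 with the covariate), for Sp8 (0.06, 0.08 and 0.08 in the same order; with the 0.2 margin both genes were at −0.07), for Zfp182 (−0.03 with the covariate) and for Mme, whose change was near 0 (0.00 with the block, −0.01 with weights and −0.04 to 0.04 without 1 array).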
